A study of Mus musculus with 14 samples.

Results

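H3K4me3, the histone methylation that marks the starts of active genes, was read at the genes of 4 glutamate receptor subunits in mouse cerebral cortex: Grin1, Grin2d, Gria3 and Grm3. Every region that the deposited tables assign to these symbols and that has values was taken, which gave 6 of 14881 regions: 2 at Grin1, 2 at Grin2d, 1 at Gria3 and 1 at Grm3. The genes had been picked because, among glutamate receptor genes, Grin2d and Grm3 had the lowest p-values for nicotine against saccharin after postnatal exposure and Gria3 and Grin1 the lowest after pre- and postnatal exposure. Those 4 differences are therefore given as descriptions, and tests are given only for the exposure that did not lead to the choice.

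The tissue was cortex of C57BL/6J mice at 3 months of age. The postnatal-only exposure had 4 libraries from mice that received nicotine and 4 from mice that received saccharin, the control solution. The pre- and postnatal exposure had 3 libraries of each. The treatment text, which is the same for all samples, has the solutions given to pregnant mice from conception, withdrawn from the offspring at day 21 and followed by an undisturbed period to day 90. A postnatal-only course is known from the sample names alone. No promoter-driven transgene or mutant allele was involved, and nothing in the labels says that libraries of a group came from separate animals, so p-values measure the spread between these samples.

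Glutamate is the main excitatory transmitter of the cortex. NMDA receptors are ligand-gated channels in which the obligatory GluN1 subunit, the product of Grin1, joins GluN2 subunits such as the one encoded by Grin2d, which in adult cortex is known mainly from interneurons. AMPA receptors, to which the GluA3 subunit encoded by Gria3 belongs, carry fast excitatory currents. Grm3 encodes mGluR3, a G protein-coupled receptor of the group that lowers cAMP and is found on neurons and astrocytes.

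The promoters of 3 of the 4 genes are shown because the mark is read at gene starts and because they differ in composition. Each sequence is the 250 bases before the annotated start, 5′ to 3′ on the coding strand, from RefSeq (GRCm38.p6, minus strand for all 3), and Gria3 had no entry in that table. The deposited regions are on build mm9, so it was not determined by position whether these bases lie inside them. Capitals mark matches to CACGTG (E-box), GGGCGG (GC box of Sp1) or GGACAG (right part of the REST element), searched on both strands, with no overlap between matches.
Grin1, chr2:25319188-25319437: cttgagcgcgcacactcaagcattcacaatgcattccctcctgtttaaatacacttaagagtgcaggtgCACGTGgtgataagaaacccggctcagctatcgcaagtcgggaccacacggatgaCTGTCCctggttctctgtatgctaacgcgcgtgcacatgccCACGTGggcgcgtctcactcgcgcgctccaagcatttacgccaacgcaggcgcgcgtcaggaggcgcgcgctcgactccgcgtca
Grin2d, chr7:45866682-45866931: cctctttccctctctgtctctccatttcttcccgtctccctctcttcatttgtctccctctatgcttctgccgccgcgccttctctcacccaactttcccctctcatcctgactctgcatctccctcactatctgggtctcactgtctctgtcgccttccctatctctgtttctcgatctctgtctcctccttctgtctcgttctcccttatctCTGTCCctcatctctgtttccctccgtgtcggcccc
Grm3, chr5:9725353-9725602: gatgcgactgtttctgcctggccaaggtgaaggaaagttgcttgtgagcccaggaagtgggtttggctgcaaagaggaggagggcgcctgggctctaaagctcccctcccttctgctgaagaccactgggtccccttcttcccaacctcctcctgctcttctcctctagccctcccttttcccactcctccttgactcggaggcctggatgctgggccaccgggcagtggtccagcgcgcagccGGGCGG

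The Grin1 sequence held 27 CpG dinucleotides, more than 91.4% of the 32851 promoter sequences of the table, whose median was 6. The Grin2d sequence held 9 CpGs and that of Grm3 held 8. The Grin2d promoter stood apart in its pyrimidines: C and T made up 82.8% of its bases on the coding strand, a share above that of 99.97% of promoters, against 52.4% at Grin1 and 56.0% at Grm3. Grin1 held 2 E-boxes, at 181 to 176 and 85 to 80 bases before the start, a motif present in 6.02% of all promoters at this length. It held 1 GGACAG on the opposite strand (126 to 121 bases before the start), as did Grin2d (36 to 31 bases before it), and this motif is present in 18.7% of promoters. Grm3 held 1 GC box directly before the start (6 to 1), a motif of 32.7% of promoters. The cAMP response element TGACGTCA, held by 1.55% of all promoters, had no match in these windows. The same was true of TATAAA, the core promoter element (12.4% of promoters), of CCAAT, which NF-Y binds (33.8%), and of the left part of the REST element, TTCAGCACC (0.301%).

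Signal is given in reads per region as adjusted by the submitters, or per kb of region where genes are compared. The depth in raw reads is unknown, and no interval for counting error can be had. Summed signal ran from 2004918 to 2489860 per postnatal library and from 1445810 to 2372855 per pre- and postnatal library. To compare libraries, the variance of counting noise was reckoned as if the adjusted values were raw reads, so only the contrast between pairs is read from it. Within each postnatal group, library 1 differed from library 2, and library 3 from library 4, by 1.00 to 1.07 times that variance. The other pairs of a group differed by 2.32 to 2.70 times. Libraries 1 and 2 were counted as 1 sample, and so were libraries 3 and 4. This gives n = 2 against 2 there and n = 3 against 3 in the pre- and postnatal table. The strongest regions, those with a table mean over 3000, took a share of the signal that ran from 8.30% to 25.5% in postnatal and from 20.1% to 52.0% in pre- and postnatal libraries, with nicotine library 1 lowest among the latter. Of the cell type markers looked up, regions were listed for 2 of 5 general neuronal, 3 of 4 projection neuron, 3 of 4 interneuron, 1 of 5 astrocyte, 3 of 5 oligodendrocyte and 1 of 4 microglial genes, for 0 of 3 liver genes and for 1 of 3 muscle genes.

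In control cortex the strongest mark per kb at these genes lay at the start-side region of Grin2d. Grin1 and Grin2d run on the minus strand, so the region of higher coordinates is on the 5′ side of the gene and that of lower coordinates on the 3′ side, and they are named so here. In postnatal saccharin samples the Grin2d 5′-side region (chromosome 7, 53120969 to 53122488, mm9, 1519 bp) held 74.3 ± 1.15 per kb (SD, n = 2). The Grin1 5′-side region (chromosome 2, 25172101 to 25175062, 2961 bp) followed with 52.8 ± 9.03 per kb, the Grm3 region (chromosome 5, 9724056 to 9726394, 2338 bp) with 46.8 ± 6.20 and the Grin2d 3′-side region (chromosome 7, 53087776 to 53089916, 2140 bp) with 42.4 ± 2.28. Gria3 (chromosome X, 38754361 to 38755968, 1607 bp) held 22.0 ± 7.46 per kb, and the Grin1 3′-side region (chromosome 2, 25146959 to 25148128, 1169 bp) 13.2 ± 2.33. The median over all regions was 50.2 per kb. Against the summed SDs of neighbours in this order, the Grin2d 5′-side region stood above Grin1, and the Grin2d 3′-side region above Gria3. The steps from Grin1 to Grm3, from Grm3 to the Grin2d 3′-side region and from Gria3 to the Grin1 3′-side region lay within the spread.

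The 6 regions had the same order in the pre- and postnatal saccharin libraries, which were adjusted in a separate table. The Grin2d 5′-side region held 53.9 ± 2.85 per kb (SD, n = 3), the Grin1 5′-side region 44.3 ± 5.35, Grm3 32.4 ± 5.94, the Grin2d 3′-side region 30.5 ± 4.82, Gria3 14.8 ± 2.60 and the Grin1 3′-side region 11.6 ± 8.89, with a median over all regions of 32.0. Here the step from the Grin1 5′-side region to Grm3 also exceeded the summed SDs. The Grin1 5′-side region was wide, wider than 97.1% of all regions, but its level per kb exceeded that of only 52.0% of regions in postnatal and 65.6% in pre- and postnatal saccharin samples. Gria3 exceeded 18.2% and 13.9% of regions, and the Grin1 3′-side region 6.98% and 6.22%.

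Among 21 glutamate receptor genes with a region, of 26 looked up, Grin2d was at rank 3 by signal per kb of its strongest region in both control groups. The genes above it, chosen for mention once their values were known, were in postnatal saccharin samples Grid1, a delta receptor, with 102 ± 3.40 per kb (SD, n = 2) and Grik4, a kainate receptor subunit, with 90.0 ± 2.93. In the pre- and postnatal samples the same genes held 55.7 ± 3.77 and 54.9 ± 2.98 (SD, n = 3), and the steps from Grid1 to Grik4 and from Grik4 to Grin2d were within the spread. So was the postnatal step from Grin2d down to Grm6, which held 68.2 ± 11.6 per kb in postnatal saccharin samples. Gria3 was lowest of the 4 AMPA receptor genes in both tables: in postnatal saccharin samples Gria4 held 36.9 ± 5.68, Gria2 33.4 ± 6.66 and Gria1 25.7 ± 6.77 per kb, and in pre- and postnatal samples 27.3 ± 3.41, 28.2 ± 3.68 and 25.8 ± 1.45. The postnatal step from Gria1 down to Gria3 was within the spread.

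**Figure D1:**
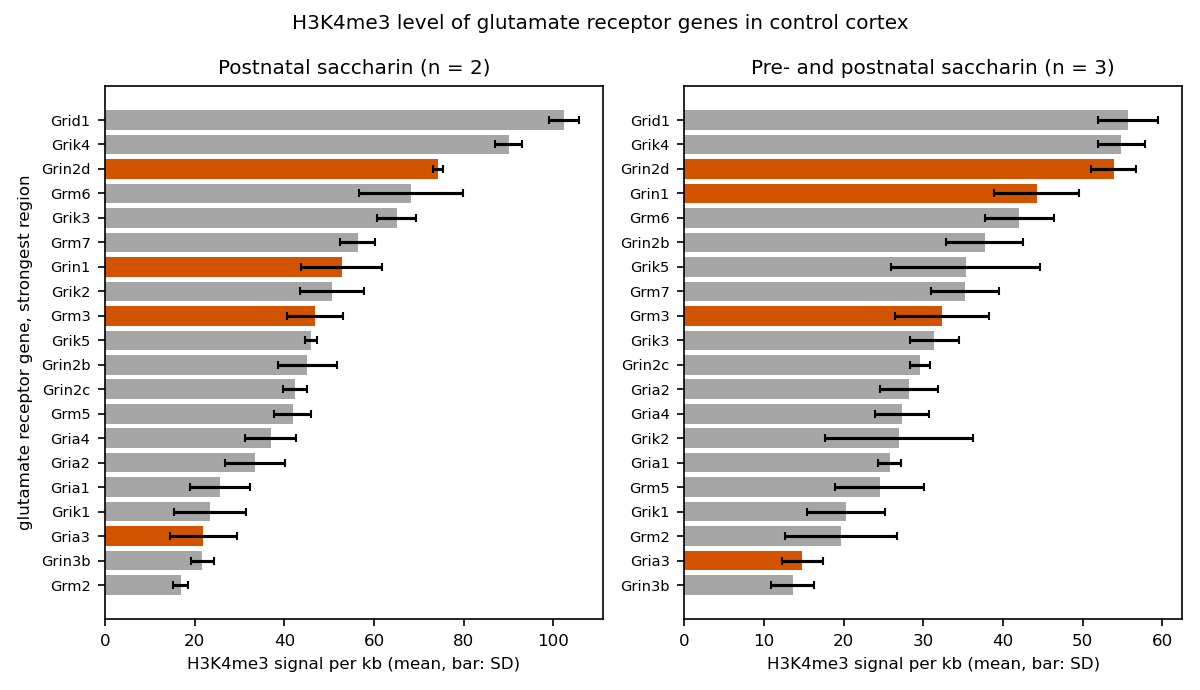
Mean H3K4me3 signal per kb in saccharin samples (bars; error bars are SD) at the strongest region of the glutamate receptor genes (1 of the 21 is not shown), with postnatal controls (n = 2) left and pre- and postnatal controls (n = 3) right. Orange bars are Grin1, Grin2d, Gria3 and Grm3, and Grin2d is at rank 3 in both panels with 74.3 and 53.9 per kb.

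The first comparison asked how nicotine confined to the postnatal period related to the mark. The Grin2d 5′-side region held 158, 154, 127 and 139 in nicotine libraries 1 to 4 and 119, 104, 113 and 116 in saccharin libraries 1 to 4. Every nicotine library lay above every saccharin library. The means were 145 ± 16.6 and 113 ± 1.74 (SD, n = 2 each), and the log2 difference was 0.35 ± 0.14 (SE). The Grin2d 3′-side region held 124, 115, 138 and 150 in nicotine and 86.4, 88.3, 93.2 and 95.3 in saccharin libraries. Again the groups did not overlap, with a log2 difference of 0.52 ± 0.15 (SE). Over all regions tested, overlap was counted by averaged sample (n = 2 against 2), a looser criterion than by library. By that count the nicotine samples lay entirely above the saccharin samples at 15% and entirely below at 14%, so that 29.1% did not overlap. No share was taken by library. As this contrast led to the choice of Grin2d, nothing is read from that.

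At the regions next to Grin2d the postnatal mean was not higher with nicotine. Grin2d was chosen on this contrast and its neighbours were not, so nothing is read from how they differ. The region of Grwd1, a WD repeat protein of ribosome assembly and the coding neighbour on the 3′ side, begins 986 bp from the Grin2d 3′-side region. Postnatal nicotine samples averaged 43.6 ± 2.35 there and saccharin samples 45.2 ± 4.90 (SD, n = 2 each), and the log2 difference was -0.04 ± 0.25 (SE). The second neighbour is Kdelr1, which encodes a receptor that retrieves proteins to the endoplasmic reticulum, 5279 bp from the Grin2d 5′-side region. Its means were 82.0 ± 16.3 and 106 ± 22.8 (log2 difference -0.36 ± 0.19), with nicotine libraries from 63.1 to 95.9 and saccharin libraries from 85.4 to 133.

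Of 4 interneuron markers, Gad2, Slc32a1 and Lhx6 had a region, and their summed signal was 82.9 to 86.1 in postnatal nicotine and 64.4 to 75.3 in saccharin samples, while no region was listed for Gad1. These sums did not overlap, as was the case at 29.1% of all regions. Their part in the Grin2d difference was not tested. In whole tissue, more cells that carry the mark and more of the mark per cell cannot be told apart.

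At Grm3 the postnatal difference ran the other way. The nicotine libraries held 82.6, 87.6, 89.2 and 85.7 and the saccharin libraries 98.1, 100.4, 114 and 125. All nicotine libraries lay below all saccharin libraries, with means of 86.3 ± 1.67 and 109 ± 14.5 (SD, n = 2 each) and a log2 difference of -0.33 ± 0.16 (SE). Counted by averaged sample, 14% of all regions tested lay entirely lower with nicotine, and 29.1% did not overlap in either direction. Grm3 was chosen on this contrast, so nothing is read from its place there. Libraries 3 and 4 of saccharin made up the upper end of the control range. Without them the difference was -0.20, and without saccharin libraries 1 and 2 it was -0.47. Slc1a2, the glial glutamate transporter gene and the 1 astrocyte marker of 5 with a region (none was listed for Aqp4, Gfap, Slc1a3 or Aldh1l1), held 166 to 191 with nicotine and 178 to 183 with saccharin.

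Grin1 and Gria3, which had not been chosen on this contrast, did not pass the test after postnatal exposure. No region passed it, those of Grin2d and Grm3 included. The Grin1 5′-side region held 158, 160, 155 and 152 in nicotine and 148, 128, 185 and 166 in saccharin libraries, so that the nicotine values lay inside the control range. Its log2 difference was 0.0079 ± 0.14 (SE; 95% interval -0.28 to 0.29; adjusted p = 1.00 in limma). The Grin1 3′-side region, weak in every library, held 16.8, 26.2, 22.6 and 19.4 in nicotine and 17.8, 9.04, 19.5 and 15.1 in saccharin libraries. The libraries overlapped, but the averaged samples did not, at 21.5 and 21.0 with nicotine and 13.4 and 17.3 with saccharin. The log2 difference was 0.45 ± 0.40 (95% interval -0.39 to 1.29; adjusted p = 1.00 in limma). It was 0.71 without saccharin library 1, 0.26 without saccharin library 2, 0.28 without nicotine library 2 and 0.28 without saccharin libraries 1 and 2. Gria3 held 40.6, 39.9, 14.8 and 35.7 in nicotine and 26.5, 27.1, 42.7 and 44.9 in saccharin libraries, with nicotine library 3 the lowest of all. Its log2 difference was -0.10 ± 0.34 (95% interval -0.81 to 0.61; adjusted p = 1.00 in limma), and it was 0.14 when library 4 alone stood for its pair.

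The postnatal samples also fall into classes that cut across treatment. In each treatment 1 postnatal sample took much of its signal from the strongest regions (25.2% in nicotine libraries 1 and 2, 18.7% in saccharin libraries 3 and 4) and the other less (10.04% in nicotine libraries 3 and 4, 8.47% in saccharin libraries 1 and 2). Gria3 was 0.67 higher on the log2 scale in the high-share samples (adjusted p = 0.0682 in limma), and nicotine minus saccharin was -0.12 within the high and -0.08 within the low class. For the Grin2d 5′-side region the differences within the classes were 0.45 and 0.25, for its 3′-side region 0.34 and 0.71, and for Grm3 -0.49 and -0.18. At these regions the nicotine and saccharin samples did not overlap, so the sign within a class was fixed. Nothing is read from it. The Grin1 5′-side region took opposite signs (-0.14 and 0.16).

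**Figure D2:**
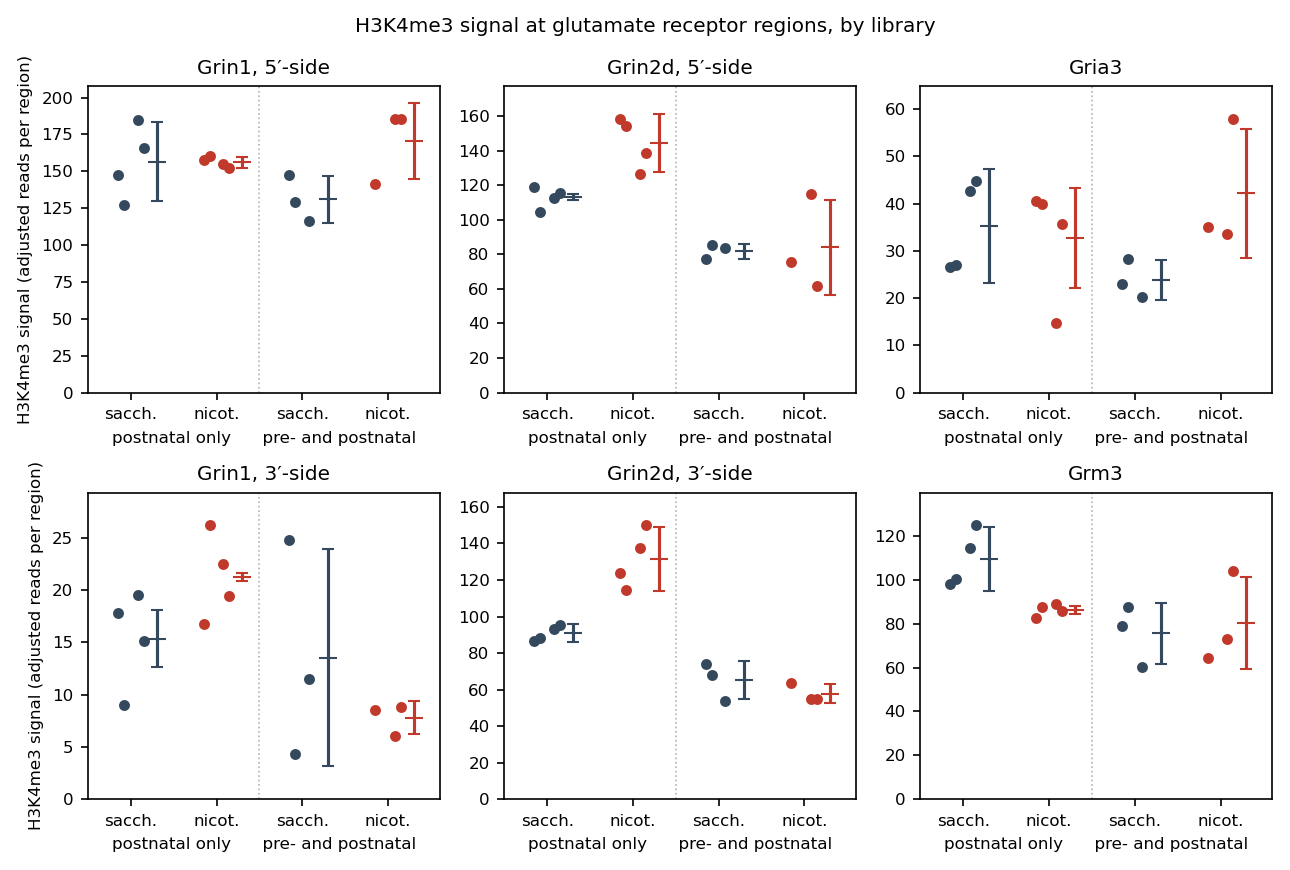
H3K4me3 signal in every library (points; adjusted reads per region, each panel on its own axis from 0) at the 6 regions, for saccharin (dark) and nicotine (red) in the postnatal-only and pre- and postnatal tables; horizontal marks with bars are the mean ± SD over samples (n = 2 and 2, then 3 and 3). Nicotine libraries stand clear of saccharin libraries at both Grin2d regions and at Grm3 on the left of each panel, and at Gria3 on the right.

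The other comparison concerned exposure that began before birth and has saccharin controls of its own. Gria3 held 35.0, 33.6 and 58.0 in nicotine libraries 1, 3 and 4 and 22.9, 28.4 and 20.2 in saccharin libraries 1, 2 and 3. All nicotine libraries lay above all saccharin libraries, and library 4 was highest. The means were 42.2 ± 13.7 and 23.8 ± 4.17 (SD, n = 3 each), and the log2 difference was 0.77 ± 0.32 (SE), which was 0.52 without nicotine library 4. Samples lay entirely higher with nicotine at 4.49% of all regions and entirely lower at 4.46%, so that 8.95% did not overlap. Gria3 was chosen on this contrast, so nothing is read from its place there.

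The Grin1 5′-side region held 141, 186 and 186 in nicotine and 148, 129 and 116 in saccharin libraries. The groups overlapped by nicotine library 1, which lay below saccharin library 1. The means were 171 ± 25.7 and 131 ± 15.9 (SD, n = 3 each), and the log2 difference was 0.37 ± 0.17 (SE), and 0.51 without nicotine library 1. The nearest region, 12223 bp away at Man1b1, which encodes a mannosidase of the endoplasmic reticulum, had the same direction and a like size. It held 99.2 ± 17.3 with nicotine and 76.0 ± 5.64 with saccharin, a log2 difference of 0.37 ± 0.19, while after postnatal exposure it was -0.10 ± 0.14. The 3′-side region of Grin1 ran in the other direction and on few reads: 8.53, 6.00 and 8.84 with nicotine against 24.8, 4.29 and 11.5 with saccharin, a log2 difference of -0.46 ± 0.60 that was 0.10 without saccharin library 1. Beside these values, the summed signal of the projection neuron markers with a region (3 of 4: Slc17a7, Camk2a and Tbr1) was 201 to 249 in nicotine and 175 to 195 in saccharin libraries. The muscle marker with a region, Ckm (1 of 3 looked up), held 19.8 to 27.5 with nicotine and 9.65 to 17.6 with saccharin. Neither overlapped, as was the case at 8.95% of all regions. The sums of the other cell type markers overlapped in this table. For the general neuronal genes Snap25 and Nefl they were 122 to 164 with nicotine and 120 to 162 with saccharin. The part of the markers in the Grin1 and Gria3 values was not tested.

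Grin2d and Grm3, which had not been chosen on the pre- and postnatal contrast, did not pass its test, and again no region did. The Grin2d 5′-side region held 75.8, 115 and 61.8 in nicotine and 77.0, 85.2 and 83.4 in saccharin libraries, so nicotine samples lay on both sides of the controls. Its log2 difference was -0.0091 ± 0.22 (SE; 95% interval -0.46 to 0.44; adjusted p = 0.999 in limma). The 3′-side region held 63.5, 55.0 and 54.9 in nicotine and 73.8, 68.0 and 53.8 in saccharin libraries. These overlapped, with a log2 difference of -0.16 ± 0.22 (95% interval -0.62 to 0.30; adjusted p = 0.987 in limma). It was -0.07 without saccharin library 1 and -0.29 without saccharin library 3. Summed interneuron markers overlapped in this table (38.2 to 58.9 with nicotine, 36.9 to 65.4 with saccharin). Grm3 held 64.3, 72.9 and 104 in nicotine and 79.0, 87.5 and 60.4 in saccharin libraries, a log2 difference of 0.07 ± 0.22 (95% interval -0.38 to 0.53; adjusted p = 0.987 in limma). At Grwd1 the difference was 0.47 ± 0.28, opposite in sign to that of the Grin2d region beside it.

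**Figure D3:**
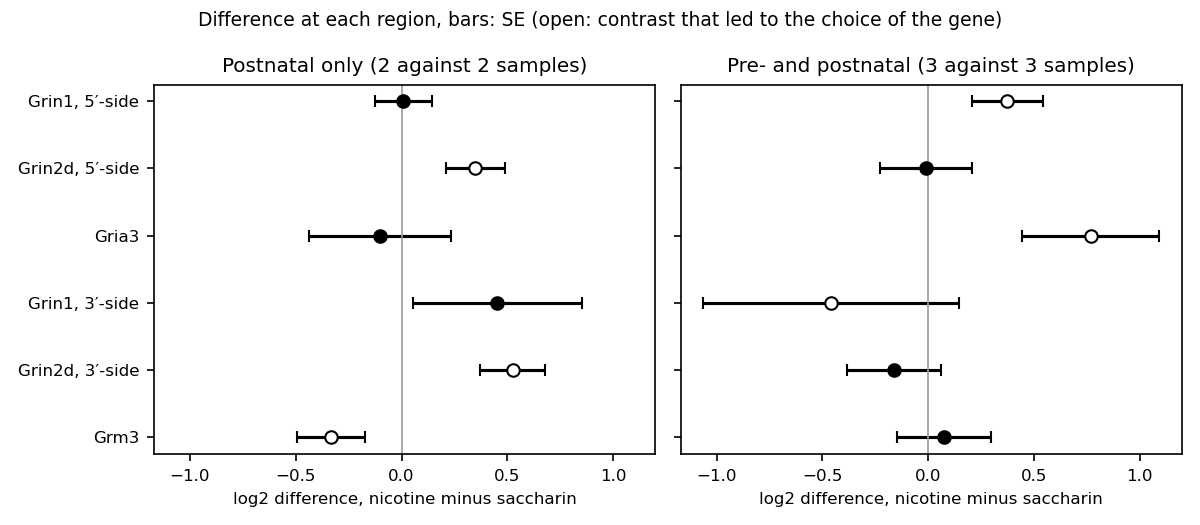
Log2 difference, nicotine minus saccharin (points; bars are the SE from limma), at the 6 regions after postnatal-only (left) and pre- and postnatal exposure (right); open points mark the contrast on which the gene was chosen. The Grin2d points lie at 0.35 and 0.52 on the left and at -0.0091 and -0.16 on the right, and Gria3 at -0.10 and 0.77.

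Set side by side, pre- and postnatal minus postnatal differences were -0.69 ± 0.27 (SE) at the Grin2d 3′-side region, -0.36 ± 0.26 at its 5′-side region, 0.41 ± 0.27 at Grm3, 0.87 ± 0.47 at Gria3, 0.37 ± 0.22 at the Grin1 5′-side region and -0.91 ± 0.72 at its 3′-side region. Each includes a contrast that chose the gene, so no p is given. In limma 0 of 14873 regions passed an adjusted p under 0.05 after postnatal exposure (0% called) and 0 of 14879 after pre- and postnatal exposure (0%). At an unadjusted p under 0.05 there were 281 (1.89%) and 534 (3.59%) regions.

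The signal ratio of the pair of Grin2d regions, 31053 bp apart, varied between libraries. The counting error of these ratios is unknown, so whether the underlying ratio varied was not determined. In postnatal saccharin libraries the 3′-side signal lay below the 5′-side signal, with log2 ratios of -0.46, -0.24, -0.27 and -0.28. Nicotine libraries 1 and 2 were alike at -0.35 and -0.42, while nicotine libraries 3 and 4 lay above 0, at 0.12 and 0.11. The nicotine samples therefore lay on both sides of the controls, with means of -0.14 ± 0.35 and -0.31 ± 0.05 (SD, n = 2 each). In the pre- and postnatal table the ratio was -0.25, -1.05 and -0.17 with nicotine and -0.06, -0.32 and -0.62 with saccharin. The difference of means was -0.15 (exact two-sided permutation p = 0.7, where 3 against 3 cannot go below 0.10), and it turned to 0.13 without nicotine library 3. Across the 10 samples of both tables, centred within each table, the regions correlated with r = 0.22, and those of Grin1 with r = -0.04. These samples share their treatment groups and the adjustment of their table.

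**Figure D4:**
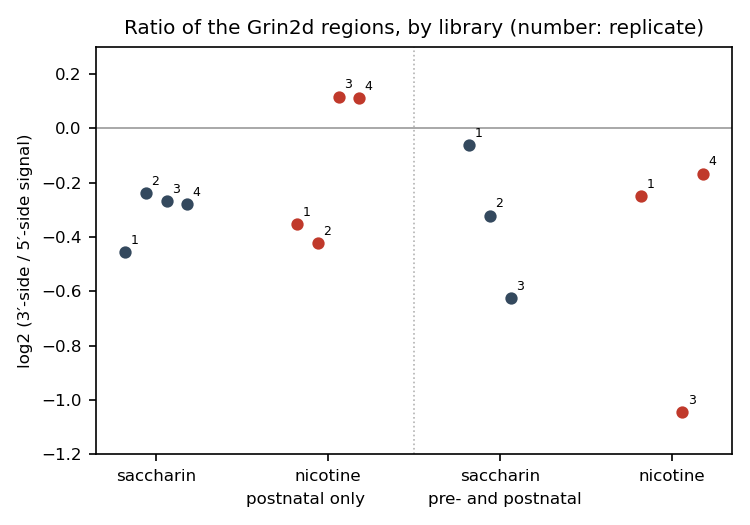
Log2 ratio of the signal at the 3′-side to that at the 5′-side region of Grin2d in each library (points, numbered by replicate), saccharin dark and nicotine red. Only postnatal nicotine libraries 3 and 4 lie above 0, at 0.12 and 0.11, and pre- and postnatal nicotine library 3 is lowest at -1.05.

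Over the same 10 samples Gria3 varied most closely with the Grin1 5′-side region (r = 0.76) and Grm3 (r = 0.60) among the 6 regions, and Grm3 and the Grin2d 5′-side region had r = -0.535. Treatment was not removed from these values, so the coefficients in part restate the differences on which the genes were chosen. Of 9769 other regions with a gene, those most like Gria3 were at Atg13 (r = 0.97), Dlg4, the gene of the scaffold PSD-95 (r = 0.95), and Ly96 (r = 0.95). Most like Grin1 were Smc1a (0.96), Arfgap2 (0.96) and Ube2j2 (0.95), most like the Grin2d 5′-side region were 1110067D22Rik (0.95), Ubqln2 (0.92) and Odf2l (0.91), and most like Grm3 were B4galt3 (0.98), Mrps23 (0.95) and Fam13c (0.95). With 10 points and this many regions high values arise readily: 1 region in 100 had an r above 0.84 for Grin1, 0.79 for Grin2d, 0.83 for Gria3 and 0.81 for Grm3.

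The other receptor genes stood as follows, with 0 genes of any list past an adjusted p under 0.05 in limma after either exposure (0% of all regions). Of the 21 glutamate receptor genes 8 lay higher and 13 lower with nicotine after postnatal exposure (median log2 difference -0.08, against -0.0036 over all regions), and 11 lay higher and 10 lower after pre- and postnatal exposure (median 0.0065, against 0.0027). The first median was -0.01 under quantile normalization and -0.08 with median-of-ratios factors. The second median was below 0 under quantile normalization (-0.02) and with median-of-ratios factors (-0.0044). Outside those 4 genes, the widest postnatal difference given here was at Grm5, the group I metabotropic receptor mGluR5, with 33.3 ± 4.46 against 49.2 ± 4.84 (log2 difference -0.55 ± 0.27, SE). After pre- and postnatal exposure the widest differences were at the NMDA receptor subunits Grin2c, with 30.0 ± 4.98 against 43.1 ± 1.79 (-0.52 ± 0.29), and Grin3b (-0.40 ± 0.47).

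Partners of these receptors were split in direction as well. Of 11 auxiliary subunit and pentraxin genes of AMPA and kainate receptors, 7 lay higher after postnatal exposure (median 0.09) and 5 after pre- and postnatal exposure (median -0.00076). Under quantile normalization the postnatal median was 0.04. Nptx2, a pentraxin that gathers AMPA receptors, differed by -0.34 ± 0.15 (SE) and Cnih2, an AMPA receptor auxiliary subunit, by 0.20 ± 0.13 after postnatal exposure, and Neto1, a kainate receptor auxiliary subunit, by 0.17 ± 0.18 and Shisa9, which joins AMPA receptors, by 0.16 ± 0.15 after pre- and postnatal exposure. Of 19 postsynaptic scaffold genes 11 lay higher after each exposure (medians 0.03 and 0.12, postnatal mean -0.01). The second of these medians was 0.06 under quantile normalization. The scaffold gene Dlg2 differed by -0.55 ± 0.30 after postnatal and by 0.56 ± 0.34 after pre- and postnatal exposure, Homer2 by 0.27 ± 0.12 and 0.37 ± 0.18, and Dlgap3 by 0.05 ± 0.27 and -0.69 ± 0.40, in the same order. Of 13 genes of glutamate transport and metabolism 4 lay higher after postnatal exposure (median -0.02) and 11 after pre- and postnatal exposure (median 0.14), where 50.5% of all regions lay higher. In the latter Slc1a6, a neuronal glutamate transporter, held 32.6 ± 10.4 against 16.8 ± 8.85 (SD, n = 3 each; log2 difference 1.01 ± 0.43) and Slc17a7, the vesicular glutamate transporter of projection neurons, 77.4 ± 16.5 against 63.1 ± 11.2 (0.28 ± 0.22). Got1, an aspartate aminotransferase (-0.21 ± 0.18), and Slc38a2, a glutamine transporter (0.14 ± 0.12), were widest after postnatal exposure.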

How the data were processed

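H3K4me3 ChIP-seq signal was taken from 1 deposited table per exposure (build mm9). As per the submitters' processing notes, edgeR was used. What the authors deposited is an adjusted signal, reads in each region after an adjustment that leaves them not whole and never negative. No label or header names the aligner, peak caller or filters. Each table had 19203 rows, of which 4322 repeated a region with empty values and were left out. Groups came from sample names. Near-identical postnatal libraries were averaged, as described in the report. limma 3.58.1 with trend (R 4.3.3) was fitted to all regions on log2 of the value plus a pseudocount of 1, keeping regions with at least 1 in as many samples as the smaller group, two-sided, with Benjamini-Hochberg adjustment and a threshold of 0.05. The fit was tested on simulated counts with planted changes. These had no near-identical libraries or share classes, so nothing about the present data is read from that. Likeness was Pearson's r over regions with a mean of at least 20 in both tables. Members and gene lists were chosen with earlier results of these data known. Named genes beside the members were the widest differences per list at a mean of at least 10, and 1 gene this names is not reported here. The strongest region stood for a gene of a list. Alternatives were other pseudocounts, filters and scalings, fits without trend, omitted libraries, a replicate block and the share of the strongest regions. Same-numbered samples did not deviate together (r -0.47 in the postnatal, -0.09 and -0.10 in the pre- and postnatal table). Figures were drawn with matplotlib 3.10.9.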

Additional observations from a re-analysis of the deposited data

How the results depend on the processing

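At both Grin2d regions and Grm3 after postnatal exposure, and at Gria3 and the Grin1 5′-side region after pre- and postnatal exposure, the direction was the same under all 21 postnatal and 14 pre- and postnatal alternatives. These contrasts chose the genes, so nothing is read from that. Other filters and a fit without trend leave every estimate unchanged. In the balanced postnatal table a replicate block and the share class leave it unchanged too, so these settings cannot test a postnatal direction. Where the samples of the groups did not overlap, omitting a sample cannot turn the sign. The postnatal direction at the Grin1 3′-side region, where averaged samples did not overlap, also held under all 21 alternatives (0.26 to 0.71). The pre- and postnatal direction at the Grin2d 3′-side region held under all 14 (-0.29 to -0.07). The remaining directions turned under some alternatives. The postnatal difference at the Grin1 5′-side region was -0.0059 under quantile normalization. When samples or libraries were left out it was -0.17 to 0.18, and that at Gria3 was -0.47 to 0.24. The pre- and postnatal difference was -1.05 to 0.10 at the Grin1 3′-side region, -0.12 to 0.22 at Grm3 and -0.25 to 0.19 at the Grin2d 5′-side region when a library was left out. With a replicate block Grm3 was -0.012 and the Grin2d 5′-side region 0.22. In the pre- and postnatal table the nicotine minus saccharin difference in the log2 ratio of the Grin2d regions ran from -0.31 to 0.13. The count of 0 called regions after postnatal exposure became 1 with the replicate block, 9 with the share class and 0 to 31 when samples were left out (31 without nicotine libraries 3 and 4, 7 without nicotine libraries 1 and 2). Numbers appear crossed between the postnatal groups, and the share class is that crossed pairing. After pre- and postnatal exposure it became 1 without trend and 0 to 17 when a library was left out (17 without nicotine library 1). The count of regions that differed between exposures was 0, and 1 with the class term and share covariate. None of the 6 regions was among these calls, and the cause was not tested. Omission of single postnatal libraries was added after seeing the data. Raw depth is unknown, so the counting error of each value is too.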
